A study of Mus musculus with 15 samples.

Results

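The secretory pathway and ER folding genes were followed here across ribosome-associated RNA and the remaining kidney RNA during obstructive injury. They are a list of 51 genes of the endoplasmic reticulum (ER) and the early secretory pathway, taken by gene symbol, and earlier results of these data were known when the list was made. Probe sets that the platform annotation maps to a single gene covered 50 of the 51, and Fkbp10 was not analysed here. Of the 18193 genes measured, 16860 passed a filter on low signal and were tested, and all 50 measured members were among them. Each gene was read from its brightest probe set.

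The series held 15 single-colour arrays in 5 groups of 3, from Col1a1-eGFPL10a mice on a C57/129sv background, both sexes, postnatal days 14 to 300. In every group the animals carried a transgene in which an element of the collagen 1α1 gene with promoter and enhancer activity drives ribosomal protein L10a fused to green fluorescent protein, so that tagged ribosomes and the RNA they hold can be pulled down (translating ribosome affinity purification). The bound groups were this pulled-down polysomal RNA, labelled as kidney pericytes (periarterial fibroblasts of the inner and outer medulla), on day 0, day 2 and day 5. The unbound groups were the RNA left behind, labelled as kidney medulla, on day 0 and day 5, and unbound RNA of day 2 was not analysed here. Day 0 kidneys came from sham-operated mice, and those of days 2 and 5 from mice with unilateral ureteral obstruction, a surgical model of kidney fibrosis. Nothing in the labels ties an array to an animal, and the spread behind the p-values may be technical.

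Proteins bound for the cell surface or the matrix enter the ER through the Sec61 translocon, fold there with chaperones and disulfide isomerases, leave in COPII-coated vesicles, and lose escaped ER residents to COPI-coated vesicles, which return them through KDEL receptors. Fibrillar procollagen makes further demands, since its many prolines are isomerised and some are hydroxylated in the ER, and the folded molecule is long for a vesicle. When unfolded proteins accumulate, sensors in the ER membrane activate the transcription factors ATF6, XBP1 and ATF4, the unfolded protein response, which raises many of these genes together. In an obstructed kidney, fibroblasts and pericytes that turn into myofibroblasts are the main makers of collagen.

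The promoters of the members held the elements of that response more often than promoters in general. The promoter table from RefSeq (GRCm38.p6) matched 42 of the 51 members and gave 250 bases before and 50 after each start. The ER stress response element (ERSE), bound by ATF6 together with NF-Y, was searched as CCAAT, then 9 bases, then CCACG. Its second form (ERSE-II) was searched as ATTGG, then 1 base, then CCACG, and the core of the unfolded protein response element (UPRE), a site of XBP1 and ATF6, as TGACGTGG. Each was searched on both strands, and the reverse complement of the UPRE core begins with the CCACG block of the other elements. ERSE stood in 7 of the 42 members (16.7%), against 37 of the 27025 genes in the table (0.137%). ERSE-II stood in 1 member (2.38%), against 12 of all genes (0.0444%), and the UPRE core in 5 members (11.9%), against 193 of all genes (0.714%). No member held more than 1 of the 3 elements. They were divided by role: ERSE or ERSE-II lay in 5 of 7 chaperones, 2 of 6 disulfide enzymes and Herpud1, while the UPRE core lay in 3 of 5 genes of COPI and KDEL retrieval and 2 of 10 of the COPII group. None of the 6 prolyl isomerase and prolyl 3-hydroxylation genes with a promoter in the table held any of them in this window. A match describes the letters and is not a shown binding site. The list was drawn from pathways whose genes this response raises, so the higher shares follow from that choice and test nothing here.

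The stretches below carry the elements of 6 members described in the results, 5′ to 3′ on the strand of the gene. Capitals mark the whole element with its spacer, and 12 bases flank the outermost elements on each side.
Hspa5, chr2:34772013-34772055, plus strand: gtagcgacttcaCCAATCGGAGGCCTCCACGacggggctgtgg
Calr, chr8:84847063-84847105, minus strand: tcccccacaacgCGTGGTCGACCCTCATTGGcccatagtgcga
Pdia6, chr12:17266479-17266521, plus strand: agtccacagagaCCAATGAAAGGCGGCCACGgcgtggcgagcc
Ero1b, chr13:12565670-12565712, plus strand: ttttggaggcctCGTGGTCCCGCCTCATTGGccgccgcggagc
Herpud1, chr8:94386365-94386399, plus strand: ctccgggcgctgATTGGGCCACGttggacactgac
Kdelr3, chr15:79516366-79516397, plus strand: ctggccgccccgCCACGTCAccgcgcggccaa
The ERSE of Hspa5 lay 65 to 47 bases before the start. Those of Calr and Ero1b ran on the opposite strand, and the single element of Herpud1 was an ERSE-II. The UPRE core of Kdelr3, also on the opposite strand, lay 30 to 23 bases before the start.

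Signal was analysed as log2(value + 1) after quantile normalization, called the normalized log2 signal below, and differences are on the log2 scale. A signal depends on its probes, so levels of different genes are not compared here. Replicate arrays correlated at r between 0.918 and 0.973 across genes. The files hold 1 intensity per probe set and no background signal, so the precision is limited by the number of arrays. Arrays 6, 9, 12 and 15 were brighter, with spiked hybridization controls averaging 12100 to 12900, against 4730 to 5860 on the other 11, and every group but bound day 0 holds 1 of them. On array 11, of the bound day 5 group, the ratio of the 5′ to the 3′ Gapdh control was 0.0269, against 0.178 or more on every other array, a sign of shorter RNA. The fibroblast markers were higher in bound RNA at day 0, where 8 of 10 passed. Pericyte and smooth muscle markers had a summed level of 14.24 to 14.66 there, against 12.51 to 12.87 in unbound RNA, and 5 of 9 passed. Podocyte markers were also higher in the bound RNA of day 0, at 14.3 to 14.98, against 11.62 to 11.88 in unbound RNA, with 5 of 5 passing the test. By day 5 they stood at 12.11 to 13.41 in bound RNA, and all 5 were lower than at day 0, with a median difference of -1.99. Of the 6 endothelial markers, 3 were lower in bound RNA of day 5 than of day 0 and none higher, with a median of -1.64. The part of the podocyte and endothelial signal in the results below was not tested.

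**Figure D1:**
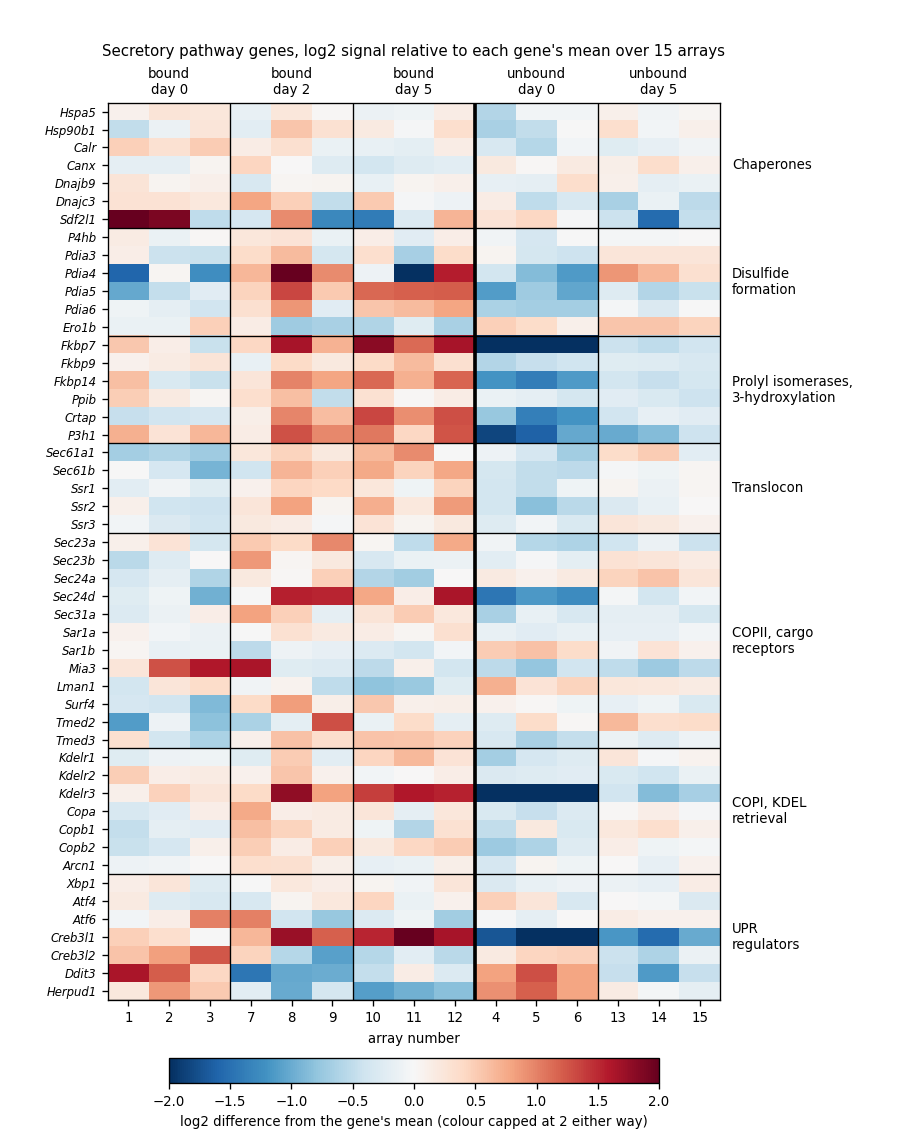
Each row is a member, grouped by role, and each column an array, grouped by fraction and day. Colour gives the difference of the normalized log2 signal from the gene's own mean over the 15 arrays, capped at 2 either way. Kdelr3, Creb3l1, Fkbp7, P3h1 and Fkbp14 are blue on the arrays of unbound day 0, while most chaperone rows stay pale throughout.

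The comparison of bound with unbound RNA at day 0 asks which members were enriched in the Col1a1-driven ribosomes of sham kidneys. Kdelr3, Creb3l1, Fkbp7 and P3h1 were each more than 4 times higher in bound RNA, Fkbp14 was 2.27 times higher, and Calr and Fkbp9 were 1.68 and 1.57 times higher. No member was called lower. These 7 of 50 called higher compare with 4.83% of all genes tested, and the 0 called lower with 4.10% (limma, adjusted p under 0.05 over all genes). The median difference of the members was 0.26, with 35 positive and 15 negative, and that of all genes was -0.13. With the 4 bright arrays left out, P3h1, Kdelr3 and Creb3l1 still passed, 3 members in all. Leaving out array 4 or array 5 left 4.

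At day 5 of obstruction, 8 members were higher in bound than in unbound RNA and 3 were lower, against 6.38% and 7.76% of all genes. Creb3l1 led again, 7.81 times higher, followed by Kdelr3, Fkbp7, P3h1, Pdia5, Crtap, Fkbp14 and Fkbp9. Ero1b, Herpud1 and Sec24a were lower. The median difference of the members was 0.31, against 0.03 for all genes. The split depends on the scaling: with arrays centred on their medians, 20 members passed and all were higher, and all genes split into 1607 higher and 759 lower in place of 1076 and 1309, with a median of 0.94 for the members and 0.41 for all genes. Without the bright arrays, 2 against 2, neither a member nor any other gene passed. Leaving out array 10, 13, 14 or 15 left 7 members, and leaving out array 11 left 8.

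Within the bound RNA, obstruction moved members both ways. By day 2, 4 were higher than at day 0 (Pdia5, Surf4, Crtap and Sec61a1) and 3 were lower (Ddit3, Creb3l2 and Herpud1), against 5.60% and 3.67% of all genes. By day 5, 12 were higher, spread over 6 of the 7 roles, and the same 3 members were lower, against 13.7% and 10.0% of all genes. The lower share of the members is below that background. The median of the members was 0.35 at day 2 and 0.24 at day 5, and that of all genes was 0.00 and 0.12. Between day 5 and day 2 no member passed, against 0.587% of all genes in either direction, and 4 members had an unadjusted p under 0.05. The day 2 count rested on single arrays: it was 14 without array 7, 3 without array 2, and 2 without array 3 or without array 8. The day 5 count was 7 without array 10 and 14 without array 11. With the bright arrays left out, 1 member passed at day 2 and 5 passed at day 5. With median centring, all genes at day 5 split into 2406 higher and 1092 lower in place of 2318 and 1690, with a median of 0.66 for the members and 0.34 for all genes.

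In the unbound RNA, 3 members were higher at day 5 than at day 0 (Fkbp7, Kdelr3 and Crtap) and 2 were lower (Ddit3 and Herpud1), against 6.44% and 3.93% of all genes. The members' median was 0.27, and that of all genes 0.01. Under median centring the members' median turned to -0.07 and the all-gene median was -0.22, the split of all genes was 638 higher and 726 lower in place of 1085 and 662, and Ddit3 and Herpud1 alone of the members passed. No member passed without the bright arrays, 2 did without array 13, and 3 did without array 5, 6, 14 or 15.

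The fibroblast markers moved with these comparisons. Their summed log2 level was 14.73 to 14.88, 15.34 to 15.75 and 15.65 to 15.83 in bound RNA of days 0, 2 and 5, and 14.81 to 14.87 in unbound RNA of day 5, against 12.56 to 13.05 in unbound RNA of day 0. Of the 10, 8 were higher in bound RNA at day 0, 5 were higher in bound RNA of day 5 than of day 0, and 6 were higher in unbound RNA of day 5 than of day 0. Proximal tubule markers had a summed level of 14.05 to 14.67, 12.54 to 14.20 and 11.81 to 12.74 in bound RNA of days 0, 2 and 5. Macrophage markers were at 12.68 to 13.9 in bound RNA of day 5, against 14.6 to 14.75 in unbound RNA of day 5, and at 11.11 to 12.81 against 12.62 to 13.13 at day 0. Fewer cells of a type and less RNA per cell cannot be told apart in these bulk samples, and the part of cell makeup in the members' changes was not tested. Markers of plasma cells, which hold much ER, had a summed level of 7.45 to 8.75, 8.29 to 10.38 and 8.5 to 8.84 in bound RNA of days 0, 2 and 5, and 9.71 to 10.36 in unbound RNA of day 5, against 8.18 to 9.4 in unbound RNA of day 0. Of the 6 measured, 1 was higher in unbound RNA of day 5 than of day 0, with a median of 1.33 over the list, and none passed in the bound RNA. At most 2 of the 6 were at or below the level of the negative control probes in any group, Tnfrsf17 in 4 of the 5 groups and none in unbound RNA of day 5.

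Of the 7 roles, prolyl isomerases and procollagen prolyl 3-hydroxylation genes had the most members enriched in bound RNA. All 6 had a positive difference at both days, and the role's median difference was 0.95 at day 0 and 1.42 at day 5. Of them, 4 passed at day 0 and 5 at day 5, where 4.83% and 6.38% of all genes were higher. Fkbp7, an ER-resident peptidyl-prolyl isomerase, had a normalized log2 signal of 11.13, 10.72 and 10.15 on the bound arrays of day 0, against 8.59, 8.58 and 8.35 on the unbound arrays. On day 5 it read 12.39, 11.72 and 12.23 in bound RNA, against 10.16, 10.08 and 10.21 in unbound RNA. Bound arrays lay above unbound arrays at each day with no overlap, by 2.16 ± 0.33 (SE, adjusted p = 0.00251) at day 0 and 1.96 ± 0.33 (adjusted p = 0.0047) at day 5 in limma's fit. Fkbp7 was also higher at day 5 than at day 0 in either fraction, by 1.45 ± 0.33 in bound RNA and 1.64 ± 0.33 in unbound RNA. With the mean of all its probe sets, none of these 4 calls was kept: the enrichment was 1.15 at day 0 (adjusted p = 0.127) and 1.18 at day 5 (adjusted p = 0.0952), and the difference between the days was 1.07 in bound RNA and 1.04 in unbound RNA. Without the bright arrays all 4 were lost as well, at an enrichment of 2.10 (adjusted p = 0.0565) at day 0 and 2.00 (adjusted p = 0.09) at day 5.

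P3h1, the prolyl 3-hydroxylase of procollagen, read 10.19, 9.76 and 10.15 in bound RNA of day 0, against 7.65, 7.86 and 8.45 in unbound RNA. It was enriched by 2.04 ± 0.34 at day 0 (adjusted p = 0.00434) and by 1.67 ± 0.34 at day 5 (adjusted p = 0.00995), with no overlap between the fractions. Over time in bound RNA it differed by 0.36 ± 0.34 between day 5 and day 0 and did not pass. A second, dimmer probe set of P3h1 lay above the negative controls on all 15 arrays. It gave 1.66 at day 2 and 2.29 at day 5 in bound RNA, and 1.11 in unbound RNA by day 5. The course of P3h1 over time is therefore not settled. Crtap, the cartilage-associated protein that forms a complex with P3H1 and cyclophilin B, rose over time in bound RNA. Its signal in bound RNA was 10.21, 10.29 and 10.33 on day 0, 10.79, 11.64 and 11.28 on day 2, and 12.0, 11.6 and 11.96 on day 5. Neither later day overlapped with day 0, and the differences from day 0 were 0.96 ± 0.24 at day 2 and 1.58 ± 0.24 at day 5 (adjusted p = 0.0278 and 0.000946). In unbound RNA Crtap read 10.29, 10.5 and 10.44 on day 5, against 9.91, 9.3 and 9.48 on day 0, a difference of 0.85 ± 0.24 that passed with all arrays (adjusted p = 0.0431). The day 2 call was lost without array 1, 2, 3, 8 or 9 and the unbound call without array 5, 6, 13, 14 or 15, while the day 5 call in bound RNA held without each array. At day 0 its enrichment was 0.72 ± 0.24 (adjusted p = 0.0879), and at day 5 it was 1.44 ± 0.24 (adjusted p = 0.00472).

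Ppib, which encodes cyclophilin B, the third member of that complex, did not pass in any comparison. It had the smallest difference between the fractions of the 6, 0.46 ± 0.26 at day 0 and 0.48 ± 0.26 at day 5. Fkbp14, an isomerase that acts on type III collagen among others, was higher in bound RNA by 1.19 ± 0.29 at day 0 and 1.40 ± 0.29 at day 5, and rose by 1.06 ± 0.29 in bound RNA by day 5. The rise was lost without array 2, 3, 10 or 12. Its day 0 call ended without array 1, 4, 5 or 6, and with the mean of both its probe sets, of which the dimmer lay above the negative controls on 2 of 15 arrays. Fkbp9, another ER isomerase, was enriched by 0.65 ± 0.18 at day 0 and 0.71 ± 0.18 at day 5. Its day 0 call was lost on leaving out any 1 of the 6 arrays, with adjusted p between 0.0732 and 0.161, and its day 5 call without array 10, 11, 13, 14 or 15.

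**Figure D2:**
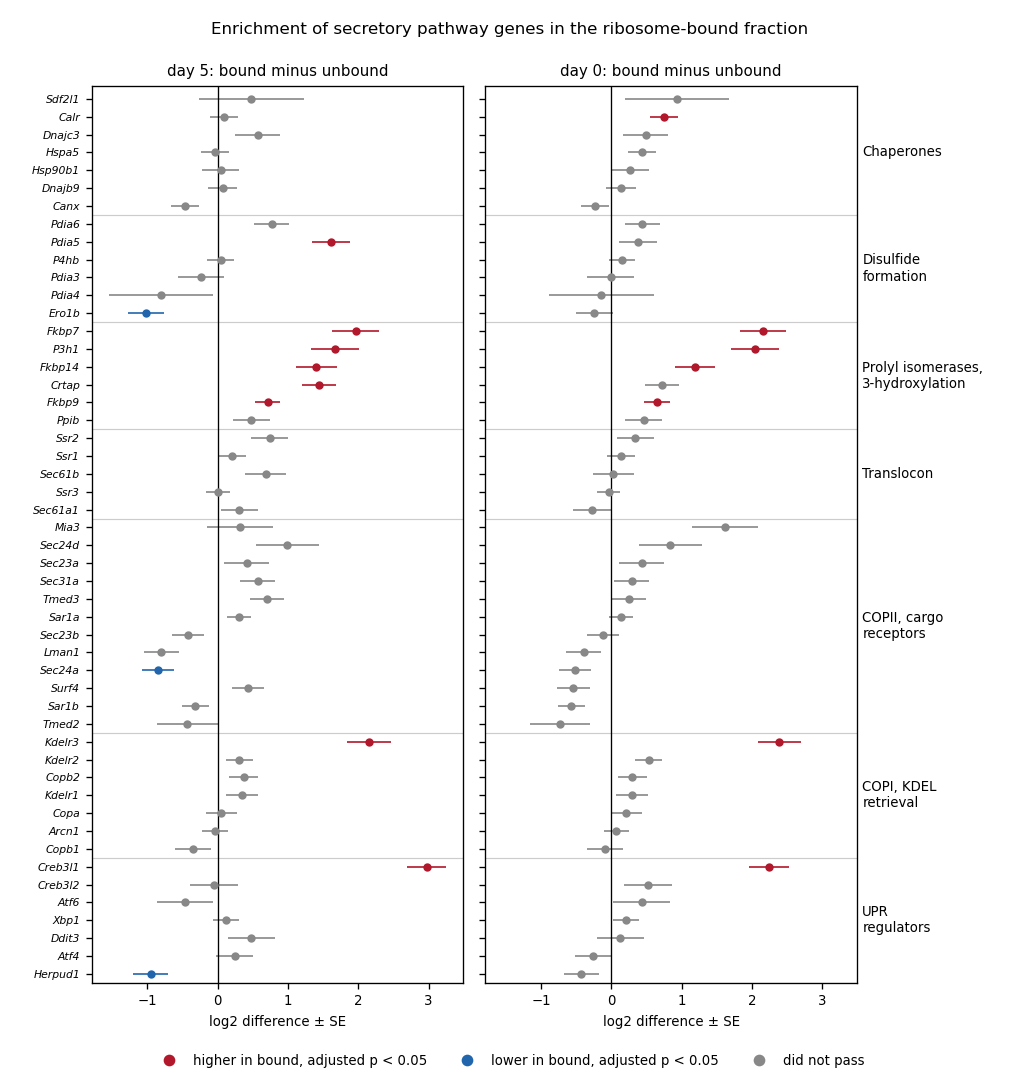
Points give the log2 difference between bound and unbound RNA of each member, at day 5 and at day 0, with bars of 1 SE from limma's fit. Within each role the genes are ordered by the day 0 difference. The points beyond 2 at day 0 are Kdelr3, Creb3l1, Fkbp7 and P3h1, and at day 5 Creb3l1 stands at 2.97 and Kdelr3 at 2.15.

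The translocon genes did not separate bound from unbound RNA at day 0, with differences between -0.28 for Sec61a1 and 0.34 for Ssr2, and none passed at day 5. Ssr2, the highest of the 5 at day 0, read 10.91, 10.41 and 10.4 in bound RNA, against 10.45, 9.97 and 10.27 in unbound RNA, and these ranges overlapped. Over time in bound RNA all 5 differences were positive, with a median of 0.61 at day 2 and 0.84 at day 5. Of them, 1 passed at day 2 and 3 at day 5, where 5.60% and 13.7% of all genes were higher. Sec61a1, the channel subunit, read 11.01, 11.09 and 10.97 on day 0, 11.92, 12.14 and 11.88 on day 2, and 12.33, 12.64 and 11.68 on day 5. Every array of days 2 and 5 lay above every array of day 0, with differences of 0.96 ± 0.27 at day 2 (adjusted p = 0.0477) and 1.20 ± 0.27 at day 5 (adjusted p = 0.00915). The day 2 call was lost without any 1 of its 6 arrays, while the day 5 call held in all 6. With the mean of its probe sets the differences were 1.06 (adjusted p = 0.0576) and 0.87 (adjusted p = 0.0691). Sec61b, a small subunit of the channel, read 12.31, 11.98 and 11.39 on day 0 and 13.07, 12.76 and 13.09 on day 5, a difference of 1.08 ± 0.29 (adjusted p = 0.0203) with no overlap, lost without array 3, 10 or 12. Ssr2, a subunit of the translocon-associated TRAP complex, rose by 0.84 ± 0.26 by day 5 (adjusted p = 0.0366), a call lost without array 2, 3, 10 or 12. Its partners Ssr1 and Ssr3 differed by 0.37 ± 0.20 and 0.42 ± 0.17 and did not pass. In unbound RNA the 5 differences from the brightest probe sets were also all positive, between 0.31 and 0.60, and none passed.

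Of the 7 general chaperones, each read from its brightest probe set, Calr alone passed, and only for enrichment at day 0. Calr, the calcium-binding lectin chaperone calreticulin, read 13.17, 13.01 and 13.21 in bound RNA of day 0, against 12.38, 12.13 and 12.64 in unbound RNA. The fractions did not overlap and differed by 0.75 ± 0.20 (adjusted p = 0.0385). The call was lost without array 1, 2, 3, 4 or 5, with adjusted p up to 0.143, and with the mean of its probe sets or median centring. At day 5 Calr read 12.55, 12.5 and 12.84 in bound RNA, against 12.46, 12.53 and 12.63 in unbound RNA, and these overlapped with a difference of 0.09 ± 0.20.

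Hspa5, the chaperone BiP and the usual readout of the unfolded protein response, read 12.69, 12.87 and 12.84 in bound RNA on day 0, 12.46, 12.83 and 12.63 on day 2, and 12.49, 12.53 and 12.76 on day 5. The days overlapped, and the difference between day 5 and day 0 was -0.20 ± 0.20 with a 95% interval from -0.64 to 0.23. Hsp90b1, the chaperone GRP94, differed by 0.29 ± 0.27 with an interval from -0.30 to 0.88. The intervals of both leave room for modest changes in either direction. A second, dimmer probe set of Hsp90b1, above the negative controls on all 15 arrays, gave -0.42 for this change. Between the fractions it gave 1.24 at day 0 and 0.93 at day 5, against 0.26 and 0.04 for the brightest. Neither the enrichment of Hsp90b1 nor its direction over time is therefore settled. Canx, the membrane-bound partner of calreticulin, differed by -0.18 ± 0.20. Dnajb9 and Dnajc3, co-chaperones of BiP, differed by -0.14 ± 0.21 and -0.13 ± 0.32. Other probe sets of Dnajc3 gave 0.16, -1.32, -0.57 and -3.00, so the size of its change is not settled. Sdf2l1, a component of the BiP system that is induced by ER stress, had the largest difference of the role, -1.48 ± 0.74, and did not pass. Its bound arrays ranged widely, at 9.48, 9.3 and 6.91 on day 0, 7.07, 8.35 and 6.12 on day 2, and 6.01, 7.13 and 8.09 on day 5, so that the spread within a day exceeded the difference. In bound RNA at day 5, 6 of the 7 differences from day 0 were negative, with a median of -0.18, against 0.12 for all genes. That count depends on the scaling. Under median centring 5 of the 7 were positive, with Hspa5 at 0.30, Canx at 0.27, Dnajb9 at 0.23 and Dnajc3 at 0.28 all turned in sign, Hsp90b1 at 0.74, and Calr (-0.02) and Sdf2l1 (-1.40) negative. At day 5 the difference between bound and unbound RNA under that scaling was 0.84 for Hspa5, 0.82 for Hsp90b1, 0.96 for Calr and 1.18 for Dnajc3.

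Among the genes of disulfide formation, Pdia5 and Pdia6 rose in bound RNA, while P4hb and Pdia3 did not pass in any comparison. Pdia5, a protein disulfide isomerase, read 8.26, 8.81 and 9.06 in bound RNA on day 0, 9.72, 10.62 and 9.81 on day 2, and 10.43, 10.47 and 10.49 on day 5. All arrays of days 2 and 5 lay above those of day 0, with differences of 1.34 ± 0.27 (adjusted p = 0.00974) and 1.75 ± 0.27 (adjusted p = 0.00101). The day 5 call held under every alternative run and without each of the 6 arrays. In unbound RNA Pdia5 read 9.02, 8.69 and 8.84 on day 5, against 8.16, 8.57 and 8.24 on day 0, a difference of 0.53 ± 0.27 that did not pass. It was enriched in bound RNA by 1.61 ± 0.27 at day 5 (adjusted p = 0.00488), while the 0.38 ± 0.27 of day 0 did not pass. The change in enrichment, 1.23 ± 0.39, was the largest positive value of any member and had an adjusted p of 0.212.

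Pdia6, which regulates the stress sensor IRE1 as well as folding, read 11.1, 11.18 and 11.33 in bound RNA on day 5, against 10.45, 10.36 and 10.16 on day 0, a rise of 0.88 ± 0.25 (adjusted p = 0.0246). The call was lost without array 2, 3, 10, 11 or 12, and a second, dimmer probe set gave -1.05. Ero1b, an oxidase that feeds disulfide bonds to the isomerases, read 8.53, 8.88 and 8.48 in bound RNA of day 5, against 9.68, 9.69 and 9.58 in unbound RNA. The groups did not overlap, with a difference of -1.02 ± 0.26 (adjusted p = 0.0256), and the call was lost without array 10, 12, 13, 14 or 15, with median centring and with the mean of its probe sets. The dimmer probe sets of Ero1b lay above the negative controls on 14 and 9 of 15 arrays. P4hb, the isomerase that also serves as the β subunit of collagen prolyl 4-hydroxylase, differed by 0.00 ± 0.19 between day 5 and day 0 of bound RNA, with an interval from -0.42 to 0.42. Pdia3, the isomerase that works with calnexin and calreticulin, differed by 0.26 ± 0.33. Pdia4 was the most variable of the role, at 8.37, 6.45 and 10.04 on the bound arrays of day 5, and none of its comparisons passed. Its day 2 arrays, 9.14, 10.68 and 9.42, all lay above those of day 0, 6.89, 8.51 and 7.22, with an adjusted p of 0.0854.

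**Figure D3:**
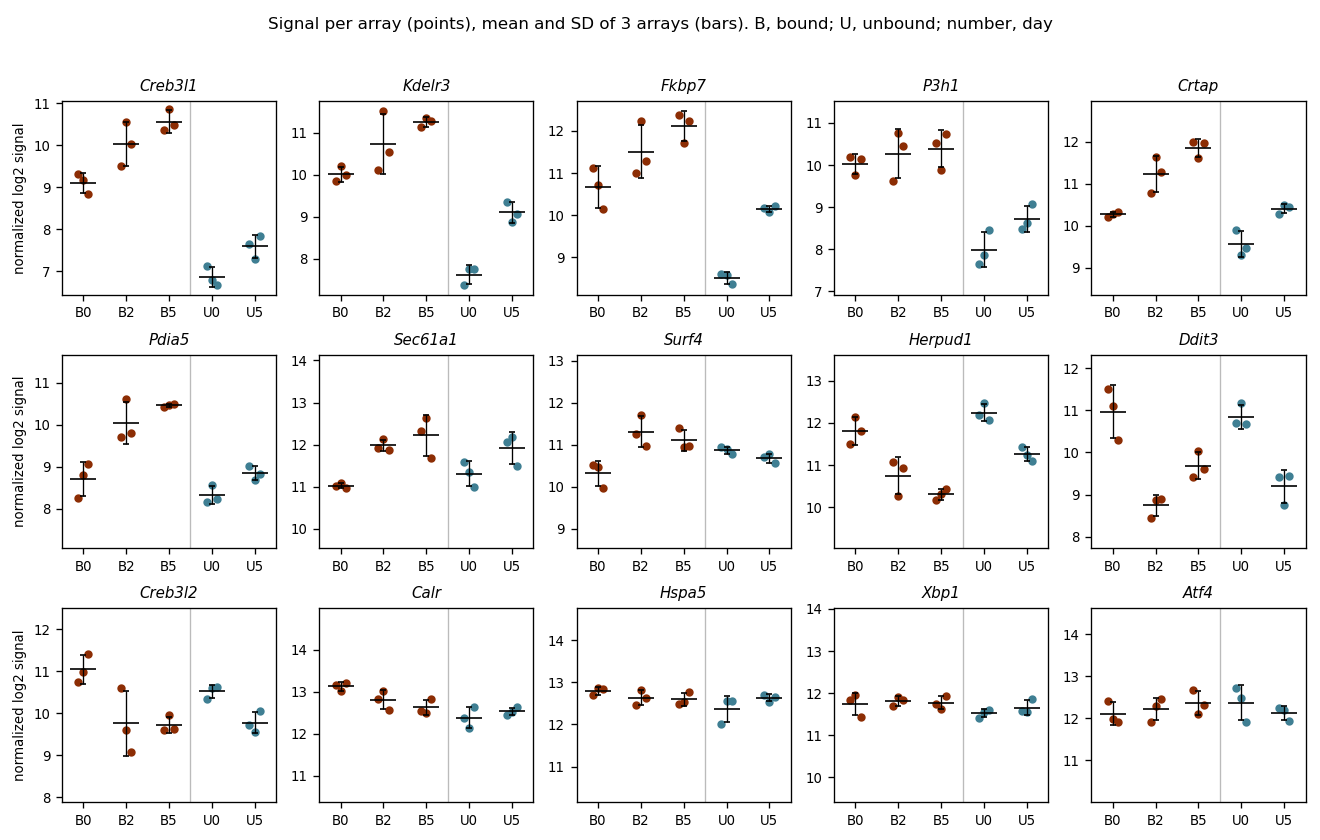
Points are arrays, with the mean and SD of each group of 3, for 15 members. B and U stand for bound and unbound and the number for the day, and each panel spans the same height in normalized log2 signal. Creb3l1, Kdelr3 and Fkbp7 lie higher in bound than in unbound RNA and higher at day 5 than at day 0, Herpud1 and Ddit3 lie lower at day 5 than at day 0 in both fractions, and Hspa5, Xbp1 and Atf4 stay within about 1 log2 unit.

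Of the 12 genes of COPII export and cargo receptors, 1 passed in bound RNA at day 2 and 2 at day 5, all higher, where 5.60% and 13.7% of all genes were higher, so that these counts are near the background. Surf4, a cargo receptor for soluble secreted proteins, read 10.52, 10.48 and 9.98 on day 0, 11.25, 11.7 and 10.98 on day 2, and 11.4, 10.96 and 10.98 on day 5. The later arrays lay above those of day 0, by 0.98 ± 0.23 at day 2 (adjusted p = 0.0209) and 0.79 ± 0.23 at day 5 (adjusted p = 0.0299), and the day 2 call was lost without array 3 or 8 and the day 5 call without array 3 or 10. With the mean of its probe sets neither was kept, at 0.60 (adjusted p = 0.157) and 0.71 (adjusted p = 0.0537). In unbound RNA it read 10.7, 10.78 and 10.56 on day 5, against 10.95, 10.89 and 10.78 on day 0, a difference of -0.19 ± 0.23. The change in its enrichment was 0.97 ± 0.33 with an adjusted p of 0.239. Other probe sets of Surf4 gave 0.70, 0.51, 0.13 and -0.09 for the change in unbound RNA. For the change in enrichment they gave 0.31, 0.16, 0.12 and 0.94, so both readings rest on the choice of probe set. Tmed3, a p24 family protein that helps to load cargo, rose by 0.76 ± 0.24 by day 5 of bound RNA (adjusted p = 0.0399), a call lost without array 2, 3, 10, 11 or 12.

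Sec24d, the COPII cargo adaptor whose loss in zebrafish blocks collagen export, read 9.68, 9.83 and 8.96 in bound RNA on day 0, 9.91, 11.48 and 11.44 on day 2, and 10.69, 10.06 and 11.55 on day 5. All later arrays lay above those of day 0, with differences of 1.45 ± 0.45 and 1.28 ± 0.45, but neither passed (adjusted p = 0.0607 and 0.0552). Its paralogue Sec24a was lower in bound than in unbound RNA at day 5, at 9.04, 8.93 and 9.64 in bound RNA against 10.08, 10.2 and 9.88 in unbound RNA, by -0.85 ± 0.23 (adjusted p = 0.0288). That call was lost without array 10, 11, 13, 14 or 15, and with the mean of its probe sets it was -0.45. The dimmer of them lay above the negative controls on 11 of 15 arrays. Mia3, the cargo receptor TANGO1 that loads procollagen into transport carriers, had the largest difference of the role at day 0, at 9.87, 10.91 and 11.23 in bound RNA, against 9.1, 8.86 and 9.25 in unbound RNA. The groups did not overlap, yet the difference of 1.61 ± 0.47 had an adjusted p of 0.0535. In bound RNA of day 5 it read 9.1, 9.73 and 9.26, which lies below all 3 arrays of day 0, with a difference of -1.31 ± 0.47 (adjusted p = 0.0623). Other, dimmer probe sets of Mia3 gave 1.85, 3.09 and 3.51 between the fractions at day 0. For the change in bound RNA by day 5 they gave -1.66, -1.75 and -1.58, and 1 of them lay above the negative controls on 13 of 15 arrays. Lman1, a lectin receptor for glycoproteins, differed by -0.80 ± 0.25 between bound and unbound RNA at day 5 (adjusted p = 0.0532). Its other probe sets gave 2.04, 1.35, -0.49 and -0.67, so the direction for Lman1 is not settled.

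The inner coat genes Sec23a and Sec23b, the outer coat gene Sec31a and the GTPases Sar1a and Sar1b did not pass in any comparison. Their differences between day 5 and day 0 of bound RNA lay between -0.15 for Sar1b and 0.41 for Sec31a. A second, dimmer probe set of Sar1a, above the negative controls on all 15 arrays, gave 1.40 at day 2 and 1.54 at day 5. Between the fractions it gave -0.36 at day 0 and 1.30 at day 5, so the course of Sar1a is not settled. Tmed2, another p24 protein, was read from its single probe set of 1 gene, with a mean signal of 5.77. It had the lowest difference at day 0, -0.73 ± 0.43.

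In COPI and KDEL retrieval a single gene carried the calls, each gene being read from its brightest probe set. Kdelr3, a KDEL receptor, read 9.85, 10.2 and 9.98 in bound RNA on day 0, 10.12, 11.52 and 10.54 on day 2, and 11.12, 11.34 and 11.28 on day 5. In unbound RNA it read 9.36, 8.87 and 9.07 on day 5, against 7.37, 7.75 and 7.75 on day 0. Bound arrays lay above unbound arrays at each day, by 2.39 ± 0.31 at day 0 (adjusted p = 0.00099) and 2.15 ± 0.31 at day 5 (adjusted p = 0.00294). The day 0 enrichment, 5.23-fold, was the largest of any member and held under every alternative and without each array. Kdelr3 was also higher at day 5 than at day 0, by 1.24 ± 0.31 in bound RNA (adjusted p = 0.013) and by 1.48 ± 0.31 in unbound RNA (adjusted p = 0.00927), the last of which was lost without array 13.

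The other KDEL receptors did not pass. Kdelr1 differed between bound and unbound RNA by 0.29 ± 0.23 at day 0, and by 0.59 ± 0.23 between day 5 and day 0 of bound RNA (adjusted p = 0.0836). Kdelr2 differed between the fractions by 0.53 ± 0.19 at day 0 (adjusted p = 0.111), and by -0.23 ± 0.19 between day 5 and day 0 of bound RNA. A second, dimmer probe set of Kdelr2, above the negative controls on all 15 arrays, gave 1.69 for that change over time. Between the fractions it gave 0.38 at day 0 and 1.76 at day 5, so the direction of Kdelr2 over time is not settled. The coat subunits Copa, Copb1, Copb2 and Arcn1 had differences between the fractions at day 0 between -0.09 and 0.30, and differences between day 5 and day 0 of bound RNA between -0.01 for Arcn1 and 0.60 for Copb2. At day 2, 4 of the 7 genes had an unadjusted p under 0.05 against day 0, and none passed after adjustment.

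The genes grouped as regulators of the unfolded protein response moved apart from each other. Creb3l1, a membrane-bound transcription factor of the ATF6 type that in mouse bone drives collagen I transcription, read 9.31, 9.17 and 8.83 in bound RNA on day 0, 9.5, 10.55 and 10.03 on day 2, and 10.35, 10.86 and 10.48 on day 5. In unbound RNA it read 7.66, 7.29 and 7.83 on day 5, against 7.12, 6.8 and 6.67 on day 0. No bound array overlapped with an unbound one, and the enrichment was 2.24 ± 0.28 at day 0 (adjusted p = 0.000973) and 2.97 ± 0.28 at day 5 (adjusted p = 0.00094). In bound RNA it rose by 1.46 ± 0.28 by day 5 (adjusted p = 0.00371), a call that held under every alternative. The 0.92 ± 0.28 of day 2 did not pass (adjusted p = 0.0608), nor did the 0.73 ± 0.28 of unbound RNA by day 5 (adjusted p = 0.13). The change in its enrichment, 0.73 ± 0.40, did not pass.

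Ddit3, the stress-induced factor CHOP, was lower in bound RNA of the obstructed kidneys. It read 11.52, 11.1 and 10.3 on day 0, 8.45, 8.87 and 8.9 on day 2, and 9.41, 10.03 and 9.61 on day 5. Neither later day overlapped with day 0, and the differences were -2.23 ± 0.33 at day 2 (adjusted p = 0.0012) and -1.29 ± 0.33 at day 5 (adjusted p = 0.0147). Unbound RNA showed 9.42, 8.75 and 9.43 on day 5, against 10.69, 11.18 and 10.67 on day 0, a difference of -1.65 ± 0.33 (adjusted p = 0.00743). Bound and unbound RNA differed by 0.13 ± 0.33 at day 0 and 0.48 ± 0.33 at day 5 and did not pass. The day 5 call in bound RNA was lost without array 10, without the bright arrays, with median centring and with only its 2 groups in the fit. With the mean of its probe sets, the day 2 difference was -1.34 (adjusted p = 0.0868) and that of unbound RNA -0.99 (adjusted p = 0.204).

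Herpud1, an ER membrane protein of ER-associated degradation that is induced through its ERSE-II, followed Ddit3 in direction. It read 11.49, 12.14 and 11.8 in bound RNA on day 0, 11.07, 10.26 and 10.92 on day 2, and 10.17, 10.32 and 10.43 on day 5, with no overlap between day 0 and either later day. The differences were -1.06 ± 0.25 (adjusted p = 0.0204) and -1.51 ± 0.25 (adjusted p = 0.0015), and the day 5 call held under every alternative and without each array, while the day 2 call was lost without array 2, 3 or 8. At day 5 it was lower in bound than in unbound RNA by a difference of -0.95 ± 0.25 (adjusted p = 0.0277), which no leaving out of 1 of those 6 arrays kept. In unbound RNA it read 11.43, 11.24 and 11.1 on day 5, against 12.19, 12.47 and 12.07 on day 0, a difference of -0.99 ± 0.25 that was lost without any 1 of the 6 arrays. A second probe set of Herpud1 gave -1.69 in bound RNA by day 5 and -1.42 in unbound RNA.

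Creb3l2, a relative of Creb3l1 that in mouse cartilage drives Sec23a, read 10.73, 10.99 and 11.4 in bound RNA on day 0, 10.61, 9.59 and 9.08 on day 2, and 9.59, 9.95 and 9.63 on day 5. The differences were -1.27 ± 0.34 (adjusted p = 0.0345) and -1.31 ± 0.34 (adjusted p = 0.0157), lost without array 2, 3, 8 or 9 at day 2 and without array 3 or 10 at day 5. Its probe sets disagree: a second, dimmer one gave 0.35 at day 2 and 0.67 at day 5, so the direction for the gene is not settled. Xbp1 read 11.83, 11.95 and 11.44 on day 0 and 11.75, 11.63 and 11.94 on day 5 of bound RNA, which overlap, and differed by 0.03 ± 0.19 with an interval from -0.39 to 0.46. An array of this kind reads the total Xbp1 RNA and not its spliced, active form. Atf4, which is controlled mainly by translation, differed by 0.26 ± 0.26. Atf6, which is activated by cleavage of the protein, differed by -0.72 ± 0.40.

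Whether the enrichment of members changed with obstruction was tested as an interaction of fraction and day. No member passed, against 0.0178% of all genes in either direction, and 3 members had an unadjusted p under 0.05 (limma). The values ran from -1.29 for Mia3 to 1.23 for Pdia5, with a median of -0.05 for the members and 0.09 for all genes, which median centring turned to 0.67 for the members and 0.53 for all genes. Differences in which members passed at day 0 and day 5 are therefore not shown to be differences in enrichment. With array weights, 3 members passed, 2 higher and 1 lower.

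The change in bound RNA and the change in unbound RNA by day 5, which share no arrays, ran alongside each other. Of the 50 members, 30 had a positive difference in both and 11 a negative one in both, so that 41 had the same sign, as did 67.8% of all genes. Across the members Pearson's r was 0.799 and Spearman's rho 0.811, and across all genes r was 0.618. Genes are not independent replicates, and the 2 differences share the quantile normalization. The agreement in sign depends on that scaling. Under median centring the members' median was 0.66 in bound RNA and -0.07 in unbound RNA. Some members then had opposite signs in bound and unbound RNA, such as Hspa5 (0.30 and -0.12), Ppib (0.42 and -0.44) and Atf4 (0.74 and -0.60). Others kept the same sign, such as Fkbp7 (1.90 and 1.32) and Herpud1 (-1.24 and -1.27). Among the members that passed in bound RNA, Surf4 was the single one of opposite sign in unbound RNA with quantile normalization. Under median centring Tmed3 was of opposite sign too, at 1.28 and -0.05. The brightest probe set of Surf4 gave -0.19 in unbound RNA and its others 0.70, 0.51, 0.13 and -0.09, so that sign is not settled.

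**Figure D4:**
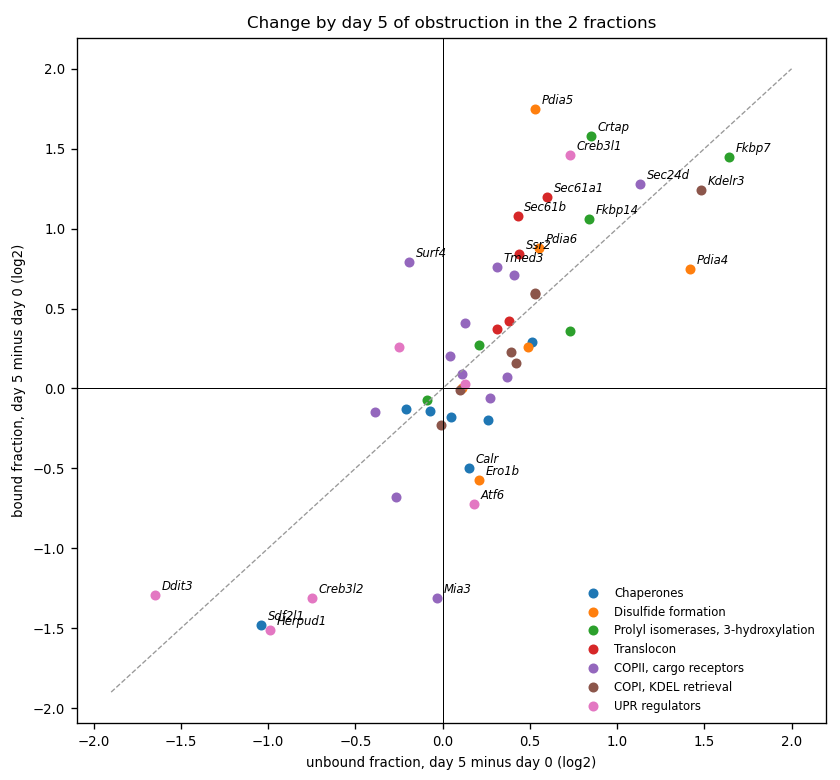
Each point is a member, coloured by role, with the day 5 minus day 0 difference of unbound RNA on the horizontal axis and that of bound RNA on the vertical axis, both in log2 units. The dashed line marks equal change, and each gene is read from its brightest probe set. Fkbp7 and Kdelr3 lie near the line at the upper right, Ddit3, Herpud1 and Creb3l2 at the lower left, Pdia5 and Surf4 above the line and Mia3 below it.

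Members with an ERSE or ERSE-II were set beside the others. Among the 8 of them, 1 was higher in bound RNA of day 5 than of day 0 (Pdia6) and 1 lower (Herpud1), with a median of -0.19. Among the 34 others with a promoter in the table, 8 were higher and 2 lower, with a median of 0.27. Under median centring the median of all genes was 0.34, and most of the 8 were positive. Hspa5 stood at 0.30, Hsp90b1 at 0.74, Calr at -0.02, Canx at 0.27, Dnajc3 at 0.28, Pdia6 at 1.28, Ero1b at -0.38 and Herpud1 at -1.24. The sign of the median of the 8 therefore depends on the scaling. Of all genes, 13.7% were higher and 10.0% lower, and with so few members the counts of neither set are read against that share. At day 2 the medians were -0.08 and 0.47, with 0 higher and 1 lower of the 8 and 3 higher and 2 lower of the 34. These counts describe the members and carry no test.

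A further 112 genes of the same pathways were taken as context, of which 106 were tested. In bound RNA 11 were higher and 1 lower at day 2, and 19 were higher and 5 lower at day 5, with medians of 0.27 and 0.26. The shares of all genes were 5.60% higher and 3.67% lower at day 2, and 13.7% and 10.0% at day 5, so that the 19 are near the background and the 5 below it. At day 0, 2 were enriched in bound RNA and 2 depleted, against 4.83% and 4.10% of all genes, and at day 5, 6 were enriched and 3 depleted, against 6.38% and 7.76%. In unbound RNA 6 were higher and 1 lower at day 5, against 6.44% and 3.93%. The N-glycosylation genes had 5 of 14 higher and 1 lower in bound RNA by day 5, among them Uggt2, a glucosyltransferase that senses misfolded glycoproteins, at 2.04 ± 0.32. Other ER folding genes had 5 of 18 higher and 1 lower. Fkbp11, an ER isomerase, had the largest change of all of these, 3.70 ± 0.43 (adjusted p = 0.000142), and was already higher by 2.88 ± 0.43 at day 2. Serpinh1, the collagen chaperone HSP47, was higher by 1.53 ± 0.24 in bound RNA and by 1.78 ± 0.24 in unbound RNA at day 5.

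The counts of the remaining lists in bound RNA by day 5 stand beside the 13.7% of all genes that were higher, and describe short lists. ER-associated degradation had 2 of 13 higher, led by the ubiquitin ligase Syvn1 at 1.22 ± 0.37. Other translocation and signal peptidase genes had 2 of 17 higher, led by Srp19, a part of the signal recognition particle, at 1.05 ± 0.28. Other COPII genes had 1 of 16 higher, Sec16b, a scaffold of ER exit sites, at 1.70 ± 0.43, and 1 lower. Other COPI and p24 genes had 3 of 14 higher, led by the coat subunit Copz1 at 1.26 ± 0.20, and 2 lower. Of the stress sensors and ATF4 or CHOP targets, 1 of 14 passed, Asns, asparagine synthetase, at 2.49 ± 0.57. In unbound RNA by day 5, Atf3, a stress-induced transcription factor, was higher by 2.28 ± 0.52, and Ern1, the sensor IRE1α, by 0.99 ± 0.22. Eif2ak3, the sensor PERK, was lower in bound than in unbound RNA at day 5, at -1.47 ± 0.38.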

How the data were processed

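Kidney RNA of Col1a1-eGFPL10a mice was measured on 15 one-colour expression arrays. The deposited table holds 1 linear intensity per probe set and array, and how the authors made it is not given in the sources used here. Per the labels' protocols, RNA was amplified in 1 round and labelled with biotin. Of 45037 probe sets other than controls, 34945 mapped to 1 gene, 932 to several and 9160 to none in the platform annotation. Only those with 1 gene were used, with symbols updated through Entrez identifiers.

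Values were converted to log2(value + 1) and quantile normalized over all arrays. The probe set with the highest mean stood for a gene. Genes above the 25th percentile on at least 3 arrays entered limma 3.58.1 under R 4.3.3 (lmFit and eBayes, 1 coefficient per group, 10 residual degrees of freedom), with Benjamini-Hochberg adjustment over 16860 genes in each of 7 contrasts and a threshold of 0.05. The fit was tested on simulated data. Fold changes are 2 to the power of the log2 difference and understate those of dim genes. No array pair was identical. Alternatives changed the filter, the normalization, the probe set rule, the pseudocount (16), the arrays in the fit, weights and covariates. A cell type was checked by the summed level of its markers, and a marker at or below the highest of the 27 negative control probe sets was taken as at the floor.

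For each role and comparison, per-array values are given for the members that passed with the largest differences, up to 2 per role, or else for the largest difference. Further members were given after their values were seen. The members and the gene lists were chosen with earlier results of these data known.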

Additional observations from a re-analysis of the deposited data

How the results depend on the processing

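No paired analysis was possible because the labels number the arrays 1 to 15, so that no number is shared between groups. Members called with limma moved as follows. For bound against unbound RNA at day 0 (7 called), 4 passed with only the groups of the contrast in the fit, 12 with array weights, 3 without the bright arrays and 4 at an adjusted p under 0.01, with 4 to 5 on leaving out 1 array. For the same comparison at day 5 (11 called), 20 passed with median centring, 24 with array weights, 0 without the bright arrays and 6 at the stricter threshold, with 7 to 10 on leaving out 1 array. For bound RNA of day 2 against day 0 (7 called), 3 passed with median centring, 3 with the mean of all probe sets, 0 with only the groups of the contrast, 1 without the bright arrays and 2 at the stricter threshold, with 2 to 14 on leaving out 1 array. For bound RNA of day 5 against day 0 (15 called), 8 passed with only the groups of the contrast, 23 with array weights, 5 without the bright arrays and 6 at the stricter threshold, with 7 to 17 on leaving out 1 array. For bound RNA of day 5 against day 2 (0 called), leaving out 1 array gave 0 to 1. For unbound RNA of day 5 against day 0 (5 called), 2 passed with median centring, 2 with the mean of all probe sets, 10 with only the groups of the contrast, 20 with array weights, 0 without the bright arrays and 3 at the stricter threshold, with 2 to 4 on leaving out 1 array. For the change in enrichment (0 called), 3 passed with array weights.

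Of the 45 single calls, 45 were kept with the filter at the 50th percentile and with a pseudocount of 16, 44 with array weights, 42 with no filter, 40 with brightness as a covariate, 31 with median centring, 27 with only the groups of the contrast, 26 with the mean of all probe sets and 9 without the bright arrays. The mean of all probe sets turned the sign of Fkbp14 for bound against unbound RNA at day 0 (-0.12) and of Pdia6 for bound RNA of day 5 against day 0 (-0.08), each through a dim second probe set. Leaving out the bright arrays leaves 2 arrays in 4 of the 5 groups. The cause of the other shifts was not tested. Under every alternative and without each array, 3 calls at day 0 (P3h1, Kdelr3, Creb3l1) and 4 calls of bound RNA at day 5 (Pdia5, Crtap, Creb3l1, Herpud1) were kept. Median centring shifted the median of all genes from 0.03 to 0.41 for bound against unbound RNA at day 5 and from 0.09 to 0.53 for the change in enrichment. Differences that depend on such a shift show a change relative to the other genes of an array.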
